A study of Mus musculus with 10 samples.

Results

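Peroxisomal oxidation and biogenesis genes were examined in iBAT, the interscapular brown adipose tissue of the mouse. The genes were chosen by symbol, and all 8 of them (Ehhadh, Hsd17b4, Acaa1a, Acaa1b, Abcd3, Pex5, Pex16 and Pex11a) were found among the 54347 gene records. All 8 passed the filter on low counts and were among the 13733 genes tested. Poly A RNA was sequenced from 5 ΔGm15551 mice (strain C57BL/6N-ΔGm15551, genotype ko) and 5 wild type C57BL/6N mice. Per the study's methods, the ΔGm15551 mice carry a CRISPR/Cas9 deletion that includes exon 1 of the lncRNA gene Gm15551, and their line was backcrossed to wild type animals. The deletion coordinates stated there for GRCm38 lie outside the annotated Gm15551 gene, so the genotype is taken from the labels. All 10 mice were 12 weeks old, were fed a chow diet and were kept alone at 4 °C for 24 h before dissection, so the values describe cold-exposed tissue in both groups.

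Peroxisomes are small organelles that shorten fatty acids too long or too branched for mitochondria. Fatty acids enter as acyl-CoA through ABC transporters. An oxidase, a bifunctional enzyme and a thiolase then remove acetyl-CoA units, and the shortened chains leave for the mitochondria. The enzymes are made in the cytosol and imported by proteins called peroxins, which also build the membrane and divide the organelle. Brown fat is known for many peroxisomes, and many of the genes are targets of PPARα, a nuclear receptor that responds to fatty acids.

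The members cover these steps. Ehhadh and Hsd17b4 encode the L- and D-bifunctional enzymes, and Acaa1a and Acaa1b encode a pair of thiolases. Abcd3 encodes PMP70, a transporter of fatty acyl-CoA in the peroxisomal membrane. Pex5 encodes the receptor that carries enzymes with the commonest targeting signal into the matrix, Pex16 a peroxin of membrane assembly and Pex11a a peroxin of division. In GRCm38, Ehhadh (ENSMUSG00000022853.7) lies at chr16:21761287-21787807 on the minus strand and Abcd3 (ENSMUSG00000028127.10) at chr3:121758774-121815302 on the minus strand. Pex5 (ENSMUSG00000005069.12) lies at chr6:124396816-124415067 on the minus strand, Pex16 (ENSMUSG00000027222.14) at chr2:92374676-92381217 on the plus strand and Pex11a (ENSMUSG00000030545.9) at chr7:79735957-79743131 on the minus strand. The position of Hsd17b4 (ENSMUSG00000024507.6) is not used here. The thiolase genes are neighbours on chromosome 9, with Acaa1b (ENSMUSG00000010651.4) at chr9:119148023-119157093 on the minus strand and Acaa1a (ENSMUSG00000036138.16) at chr9:119339676-119350299 on the plus strand.

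Acaa1a and Acaa1b are nearly the same in their coding sequence, which matters for every value given for them. Their longest coding sequences are both 1272 bp long and were identical at 1228 positions (96.5%), with a longest identical run of 327 bp. Of the 31-base words in Acaa1b transcripts, 773 (40%) also occur in Acaa1a transcripts, where they make up 16.9% of the words. Reads from such stretches are shared out between the genes by an estimate, so the split between them is less certain than their sum. The first sequences show the 90 coding bases where the genes differ most, from coding position 460 to 549 in exons 6 and 7 of 12, with the 13 differing bases in capitals. They lie at chr9:119346483-119347733 for Acaa1a (plus strand) and chr9:119150901-119151901 for Acaa1b (minus strand), spans that include an intron.
Acaa1a: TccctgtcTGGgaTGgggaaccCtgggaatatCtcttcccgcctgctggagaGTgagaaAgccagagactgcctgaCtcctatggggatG
Acaa1b: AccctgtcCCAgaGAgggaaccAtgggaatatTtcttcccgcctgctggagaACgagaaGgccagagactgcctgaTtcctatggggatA
The next sequence shows the first 90 bases of the longest identical run, at coding position 748 to 837 in exons 8 and 9, where a read cannot tell the genes apart. In Acaa1a it spans chr9:119348702-119348940 and in Acaa1b chr9:119149431-119149669, again with an intron.
Acaa1a and Acaa1b: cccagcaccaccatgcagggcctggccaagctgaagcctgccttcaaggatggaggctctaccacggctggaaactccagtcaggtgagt

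The promoters of the members were read from RefSeq (GRCm38.p6), with Hsd17b4 left out. The other 7 members had 11 promoters, each reaching from upstream of a RefSeq transcript start to just past it. CCAAT was found on either strand in 6 of these 11 promoters, in the genes Acaa1a, Acaa1b, Ehhadh, Pex16 and Pex5, and in 37.4% of all 32851 promoters. AGGTCA on either strand was found in 0 of the 11 and in 16.3% of all promoters, and the longer AGGTCANAGGTCA, the letters of the element that PPAR receptors are known to bind, in 0 of the 11 and in 0.0396% of all. The longer motif contains the shorter one. These are letter matches in a short window.

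The libraries held 9680976 to 15771170 counts. Gm15551 had 0 counts in all 5 ΔGm15551 mice, and 1, 2, 6, 7 and 0 counts in wild type replicates 2, 3, 5, 6 and 7, so wild type replicate 7 could not be told from the deletion by this gene. The tissue label was checked on marker genes. All 8 brown adipocyte markers were counted in every mouse, with a summed level of 11481 to 15631 CPM in ΔGm15551 mice and 11421 to 14945 CPM in wild type mice. For the marker sums in this paragraph, CPM is counts relative to the library total. For the single genes below, CPM is counts relative to the TMM-scaled library size. All 6 common adipocyte markers and all 5 macrophage and leukocyte markers were also counted in every mouse, the latter at 33.1 to 62.6 CPM in ΔGm15551 mice and 37.6 to 70.3 CPM in wild type mice. Of 5 hepatocyte markers 2 were counted in every mouse, at a sum of at most 3.60 CPM. Skeletal muscle genes took 0.00013% to 0.313% of the counts and were highest in wild type replicate 7 and ΔGm15551 replicates 4 and 1. In bulk tissue, fewer cells of a type and less RNA per cell cannot be told apart.

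The first comparison was between genotypes. No difference between ΔGm15551 and wild type mice was detected for any member, whether transporter, oxidation enzyme or peroxin. With edgeR's quasi-likelihood test, 0 of the 8 members had an adjusted p under 0.05, beside 0 (0%) of the 13733 genes tested. At an unadjusted p under 0.05 there were also 0 members, beside 220 genes (1.60%), and the CPM ranges of the groups overlapped for all 8, while they did not overlap for 44 genes (0.320%). DESeq2 and limma-voom also called 0 genes, with 229 and 249 at an unadjusted p under 0.05. Without ΔGm15551 replicate 1 or wild type replicate 7 edgeR gave 420 and 404 such genes, with 0 members among them. The log2FC (ΔGm15551 minus wild type) was above 0 for 6 members and below 0 for 2, with a median of 0.027 beside -0.0010 over all genes tested. For Pex5, Pex16 and Pex11a the 95% intervals lay within -0.27 and 0.35 on the log2 scale. For Ehhadh and Acaa1b they were wide, from -0.34 to 0.99 and from -0.66 to 0.94, so that the change in these genes was bounded only loosely, up to 1.98-fold higher for Ehhadh.

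Ehhadh, which encodes the L-bifunctional enzyme of straight-chain substrates, spread widely. ΔGm15551 replicates 1, 2, 4, 5 and 7 had 384, 745, 699, 412 and 229.9 CPM, and wild type replicates 2, 3, 5, 6 and 7 had 440.3, 528, 427, 367 and 212 CPM. The highest and the second highest values were both from ΔGm15551 mice, but replicate 7 of each genotype was the lowest of its group and the groups overlapped. The means were 494 ± 219.9 CPM and 395 ± 117 CPM (SD, n = 5 each), with a log2FC of 0.32 (SE 0.31, edgeR adjusted p = 0.99998). With edgeR its unadjusted p of 0.311 was the smallest among the members. Leaving out 1 mouse at a time moved the log2FC between 0.13 (without ΔGm15551 replicate 2) and 0.50 (without ΔGm15551 replicate 7), and it passed the threshold in none of these fits.

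Hsd17b4, the D-bifunctional enzyme that also handles branched chains and bile acid precursors, had 219, 385, 369.8, 307 and 424 CPM in the same ΔGm15551 mice. In wild type mice the values were 344, 413, 399, 386 and 194 CPM. ΔGm15551 replicate 1 and wild type replicate 7 were low, and the other 8 mice lay between 307 and 424 CPM. The means were 341 ± 80.3 CPM and 347 ± 89.4 CPM (SD, n = 5 each), a log2FC of -0.03 (SE 0.21). Abcd3, the transporter, had 437, 670.0, 705, 537 and 605 CPM in ΔGm15551 mice and 545, 913, 743, 698 and 352 CPM in wild type mice. The same mice were lowest in each group, and wild type mice held both the highest and the lowest value. Its means of 591 ± 107 CPM and 650.2 ± 212 CPM gave a log2FC of -0.14 (SE 0.22).

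The thiolase Acaa1a was steadier, with 128, 168, 112, 169.9 and 115 CPM in ΔGm15551 mice and 125, 111, 130.2, 172 and 144 CPM in wild type mice. Its means were 139 ± 28.3 CPM and 136 ± 23.5 CPM (SD, n = 5 each), a log2FC of 0.02 (SE 0.16). Its near-identical partner Acaa1b had 144, 29.1, 66.7, 102 and 69.4 CPM in ΔGm15551 mice and 98.1, 53.7, 77.1, 46.5 and 98.2 CPM in wild type mice. ΔGm15551 mice held both the highest and the lowest Acaa1b value, 4.93-fold apart. The means were 82.1 ± 42.9 CPM and 74.7 ± 24.2 CPM, a log2FC of 0.14 (SE 0.36). Because the split is uncertain, the sum of both thiolases was also fitted, and it had 221 ± 46.8 CPM in ΔGm15551 mice and 211 ± 29.1 CPM in wild type mice (log2FC 0.06, SE 0.16). Acaa1a also overlaps exons of Myd88 by 290 bp on the opposite strand, and Acaa1b those of Dlec1 by 224 bp. Myd88 and Dlec1 had 2141 and 148 counts over the 10 mice, and the library kit is not stated to mark strand.

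Among the members, the peroxins varied least by the SD of log2 CPM within groups. Pex5, the import receptor, had 155, 199, 159, 158 and 176 CPM in ΔGm15551 mice and 149, 155, 177, 199 and 129.7 CPM in wild type mice (log2FC 0.07, SE 0.13). Pex16, of membrane assembly, had 116, 104, 104, 132 and 103 CPM in ΔGm15551 mice and 119.9, 84.3, 119, 118 and 117 CPM in wild type mice (log2FC 0.00069, SE 0.12). All wild type mice but replicate 3 were within 117 to 119.9 CPM for Pex16. Pex16 overlaps exons of Large2 on the opposite strand by 127 bp, and Large2 had 24 counts over the 10 mice. Pex11a, of division, had 45.9, 67.3, 59.6, 63.0 and 66.8 CPM in ΔGm15551 mice and 58.0, 67.2, 60.2, 58.9 and 51.7 CPM in wild type mice (log2FC 0.03, SE 0.12). Ppara, which encodes PPARα, had 62.8 ± 13.1 CPM and 55.5 ± 15.2 CPM (log2FC 0.18, SE 0.20, edgeR unadjusted p = 0.398).

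**Figure D1:**
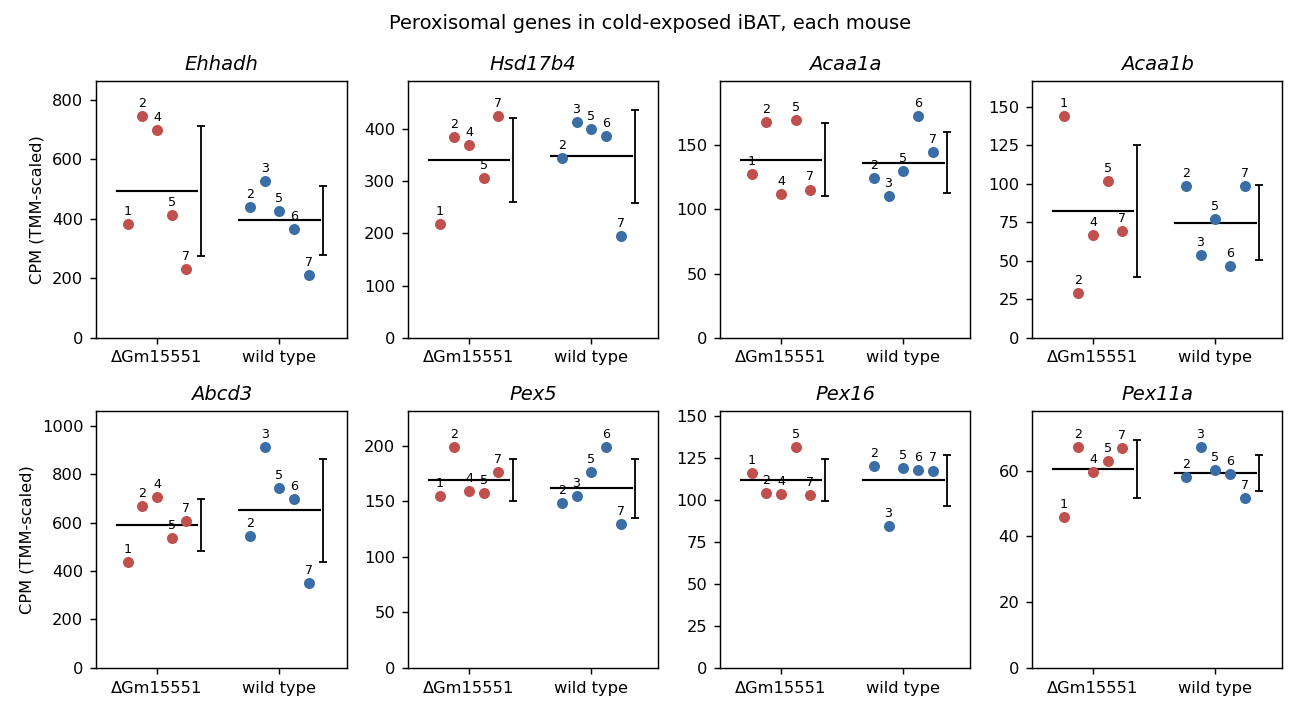
TMM-scaled CPM of the 8 peroxisomal genes in each mouse (points, with replicate numbers), for ΔGm15551 (red) and wild type (blue), with the group mean (line) and SD (bar), n = 5 each. The groups overlap in every panel. Ehhadh runs from 212 to 745 CPM and Acaa1b from 29.1 to 144 CPM, while Pex16 stays between 84.3 and 132 CPM.

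The other genes of the organelle were read from a list of 62 genes in 9 roles. Of these 55 were tested, and Gdap1, Hao1, Hao2, Dao, Pipox, Agxt and Uox had too few counts, with at most 20 over the 10 mice. None of the 55 had an adjusted p under 0.05 or an unadjusted p under 0.05 with edgeR, and in none were the CPM ranges of the groups separate. The log2FC was above 0 for 22 and below 0 for 33, with a median of -0.030, beside 6826 above and 6907 below 0 among all genes tested. Single mice moved this median, which was 0.041 without ΔGm15551 replicate 1 and -0.11 without wild type replicate 7. The smallest p-values were those of Far1, a reductase that makes fatty alcohols for ether lipids (log2FC -0.27, SE 0.14, edgeR unadjusted p = 0.0743), Acbd4, an acyl-CoA binding protein that tethers peroxisomes to the endoplasmic reticulum (0.22, SE 0.12), and Pex14, the docking site of Pex5 (0.15, SE 0.12). All 4 ether lipid genes had a log2FC below 0 (median -0.15) and all 5 tested genes of oxidant and amino acid metabolism one above 0 (median 0.05), with none past the test. Without ΔGm15551 replicate 1, 2 of the 54 genes then tested had an unadjusted p under 0.05 with edgeR, beside 420 of 13821 genes in all, and 0 an adjusted one.

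**Figure D2:**
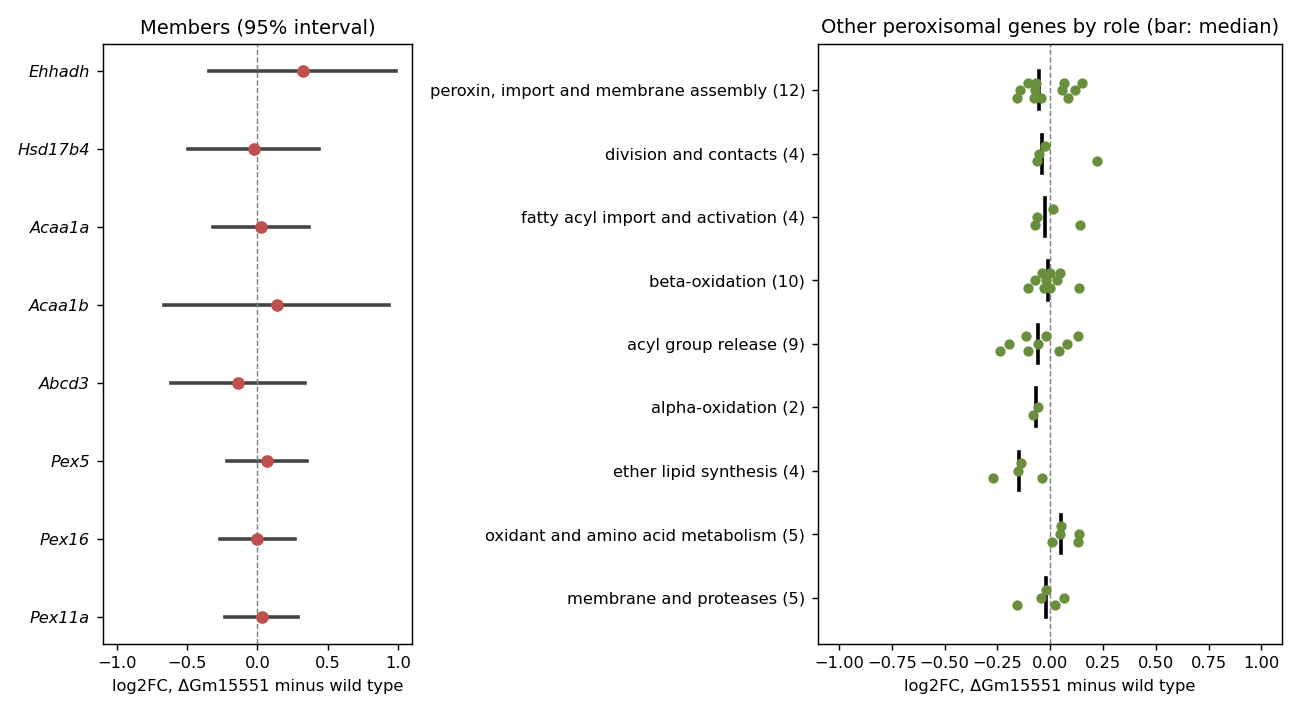
Left, log2FC (ΔGm15551 minus wild type) of each member with its 95% interval from the edgeR fit. Right, log2FC of 55 other peroxisomal genes by role, with the number of genes in brackets and the median of each role as a bar. All 8 intervals include 0, and the other genes lie between -0.27 and 0.22.

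To compare genes with one another, CPM was divided by the length of all annotated exons in kb. On this scale Ehhadh was the highest member, at 149 ± 58.4 CPM per kb (SD, n = 10 mice). Hsd17b4 followed at 101 ± 23.6, Abcd3 at 94.1 ± 24.5, Pex16 at 62.9 ± 7.41, Pex5 at 42.0 ± 5.60, Acaa1b at 39.97 ± 16.9, Acaa1a at 31.2 ± 5.56 and Pex11a at 18.8 ± 2.18 CPM per kb. Neighbours in this order were compared within each mouse by an exact sign-flip permutation test (two-sided, n = 10, adjusted over 7 pairs). Ehhadh exceeded Hsd17b4 in 9 of 10 mice (1.41-fold, permutation adjusted p = 0.0444) and Abcd3 exceeded Pex16 in 9 (1.46-fold, permutation adjusted p = 0.0273). Pex16 exceeded Pex5 and Acaa1a exceeded Pex11a in all 10 mice (1.50-fold and 1.64-fold, permutation adjusted p = 0.00684 for both). Hsd17b4 and Abcd3 did not differ beyond their spread (1.08-fold, permutation adjusted p = 0.112), and neither did Pex5 and Acaa1b (1.14-fold, 0.498) or Acaa1b and Acaa1a (1.19-fold, 0.367).

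The order depended on the length used. Per kb of the longest coding transcript, Abcd3 was highest at 178 CPM per kb, Acaa1a (78.1) stood above Acaa1b (46.4), and 2 of the 8 members kept their rank. On this scale Ehhadh no longer passed against Hsd17b4 (1.11-fold, 6 of 10 mice, permutation adjusted p = 0.455). The 2 neighbour pairs that passed were Hsd17b4 over Pex16 and Acaa1a over Pex5 (permutation adjusted p = 0.0273 and 0.0137), which were not neighbours on the first scale. Acaa1a has 4414 bp of exons over 10 annotated transcripts and 1762 bp in its longest coding transcript, and Abcd3 has 6593 and 3489 bp. The mean of Pex11a ranked lowest on both scales, but with the coding length its difference from Acaa1b, the next gene, did not pass (9 of 10 mice, permutation adjusted p = 0.0638).

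Within the rest of the organelle, 2 genes per role are named by level, per kb of all exons over the 10 mice. The thiolase and carrier gene Scp2 and the isomerase Ech1 were the highest of all listed genes, at 342 ± 33.9 and 343 ± 35.9 CPM per kb, both above every member. Cat, the catalase that removes the hydrogen peroxide made by oxidation, had 213 ± 39.8, and the peroxiredoxin Prdx5 had 152 ± 24.1 CPM per kb. Crat, which turns acyl groups into carnitine esters for export, had 182 ± 27.7, and Nudt19, a CoA hydrolase, had 34.5 ± 2.18. Phyh, the first enzyme of alpha-oxidation, had 178 ± 29.4 and the next lyase Hacl1 had 6.96 ± 1.65. The acyl-CoA synthetase Slc27a2 had 134 ± 34.2 and the cofactor carrier Slc25a17 had 91.7 ± 18.6. The peroxins Pex6, a motor of receptor recycling, and Pex19, a chaperone of membrane proteins, had 83.4 ± 12.8 and 72.9 ± 10.4. The proteases Tysnd1 and Lonp2 had 79.6 ± 13.4 and 34.8 ± 7.05. In ether lipid synthesis Gnpat had 77.0 ± 13.8 and Agps had 3.41 ± 0.45, and of the division and contact genes Acbd4 had 18.2 ± 2.90 and Acbd5 had 9.02 ± 2.40 CPM per kb. Ech1, Crat and Prdx5 also make proteins of mitochondria.

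The oxidation enzymes and the transporter were then set against mitochondrial genes of the like step. The 3 peroxins have no such counterpart here. The mitochondrial gene was higher in all 10 mice for each of 5 pairs (exact sign-flip permutation test, two-sided, n = 10, p = 0.00195 for each and the same after adjustment, the smallest that 10 mice can give). Hadha, the alpha subunit of the trifunctional protein that performs the bifunctional steps in mitochondria, exceeded Ehhadh by 1.71-fold (1.11 to 3.83 over mice) and Hsd17b4 by 2.41-fold (2.26 to 2.77). The ratio to Hsd17b4 thus varied little from mouse to mouse, and that to Ehhadh varied more. The thiolase subunit Hadhb exceeded the summed Acaa1a and Acaa1b level by 5.81-fold (2.90 to 9.42), and the mitochondrial thiolase Acaa2 exceeded that sum by 12.2-fold (7.82 to 16.7). Cpt2, of the carnitine system that admits fatty acids to mitochondria, exceeded Abcd3 by 2.34-fold (1.71 to 2.86). Between genotypes these ratios differed by less than their spread (two-sided exact permutation test, n = 5 each, adjusted p = 0.635 to 0.841). Per kb of the longest coding transcript the ratios were 3.71, 4.13, 10.6, 6.90 and 1.25, and Cpt2 then exceeded Abcd3 in 9 of 10 mice.

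**Figure D3:**
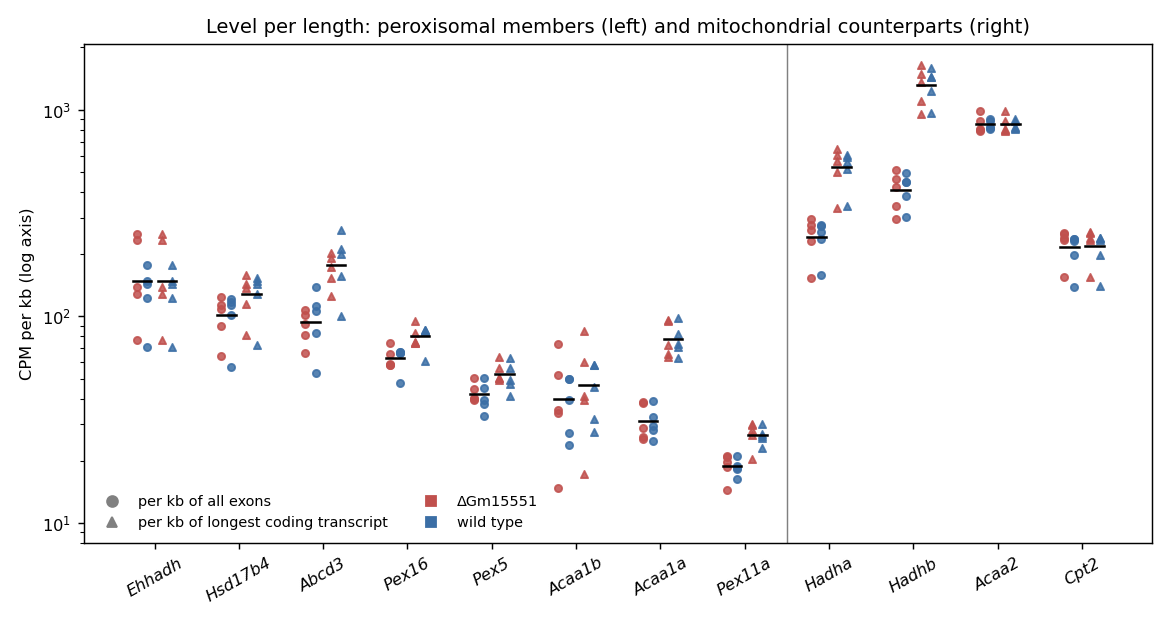
CPM per kb on a log axis, in each of the 10 mice (ΔGm15551 red, wild type blue), for the 8 members in order of their level and for 4 mitochondrial counterparts. Circles are per kb of all exons, triangles per kb of the longest coding transcript, and lines are means. The mitochondrial genes lie mostly above the members, with Acaa2 at a mean of 849.96 CPM per kb on both scales, and the members' order changes with the length used.

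The spread between mice was a feature of some members. The SD of log2 CPM within groups was 0.70 for Acaa1b and 0.61 for Ehhadh, larger than in 98.9% and 98.2% of the 8082 genes that averaged 10 CPM or more, whose median was 0.22. Abcd3 and Hsd17b4 had SDs of 0.42 each (above 92.4% and 92.2% of the genes), Acaa1a 0.27 (67.2%), Pex5 0.20 (42.8%), Pex16 0.19 (39.1%) and Pex11a 0.19 (37.5%). Every member had at least 410 counts in every mouse.

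The mice also differed in how long and short transcripts were represented, and part of the spread moved with this. For each mouse, the median deviation from the mean of the 10 mice was taken over the 1976 genes with the longest coding transcripts (at least 4844 bp) and over the 1976 with the shortest (at most 2048 bp). The difference between these medians ran from -0.31 on the log2 scale in ΔGm15551 replicate 5 to 0.27 in wild type replicate 3, and it was -0.25 for wild type replicate 7. Over the 10 mice, Abcd3 rose with this difference (r = 0.85, permutation p = 0.00179, rho = 0.85, permutation p = 0.00300, r = 0.91 without the 2 farthest mice). Pex16 fell with it (r = -0.79, permutation p = 0.00449, rho = -0.64, permutation p = 0.0540, r = -0.75 without the 2 farthest). Hsd17b4 rose with it (r = 0.75, permutation p = 0.0130, rho = 0.67, permutation p = 0.0387, r = 0.71 without the 2 farthest), and Acaa1b fell with it (r = -0.75, permutation p = 0.0125, rho = -0.89, permutation p = 0.00121, r = -0.79 without the 2 farthest). Adjusted over the 8 members, the permutation p-values for r were 0.0143, 0.0180, 0.0260 and 0.0260, and those of the other 4 members were 0.129 to 0.318. The share of all genes that pass the same test was not determined. The relation is therefore not shown to be particular to these members.

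The members were therefore also read after a loess correction of each library on transcript length and GC content, chosen after the data had been seen. The SD within groups became 0.62 for Acaa1b, 0.56 for Ehhadh, 0.35 for Hsd17b4, 0.32 for Abcd3, 0.23 for Acaa1a, 0.22 for Pex5, 0.14 for Pex11a and 0.097 for Pex16, lower than before for all but Pex5. The corrected values still moved with the difference between long and short transcripts. Here r went from 0.75 to 0.74 for Hsd17b4, from 0.85 to 0.74 for Abcd3 and from -0.75 to -0.61 for Acaa1b. For Pex5 it rose from 0.53 to 0.71. For Pex16 r went from -0.79 to 0.42 and for Acaa1a from -0.35 to 0.24, while Ehhadh and Pex11a had 0.47 and 0.48, so the correction changed the relation without removing it for every member. Acaa1b still spanned 4.49-fold and Ehhadh 3.22-fold over the 10 mice. With a muscle score, the mean log2 CPM of 10 skeletal muscle genes, no member passed after adjustment over the 8. The r values farthest from 0 were those of Pex11a (-0.72, rho -0.54), Hsd17b4 (-0.70, rho -0.68), Pex5 (-0.68, rho -0.55) and Acaa1b (0.68, rho 0.62), each with a permutation adjusted p of 0.0623 for r. The part of transcript length and of muscle in the spread was not tested.

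**Figure D4:**
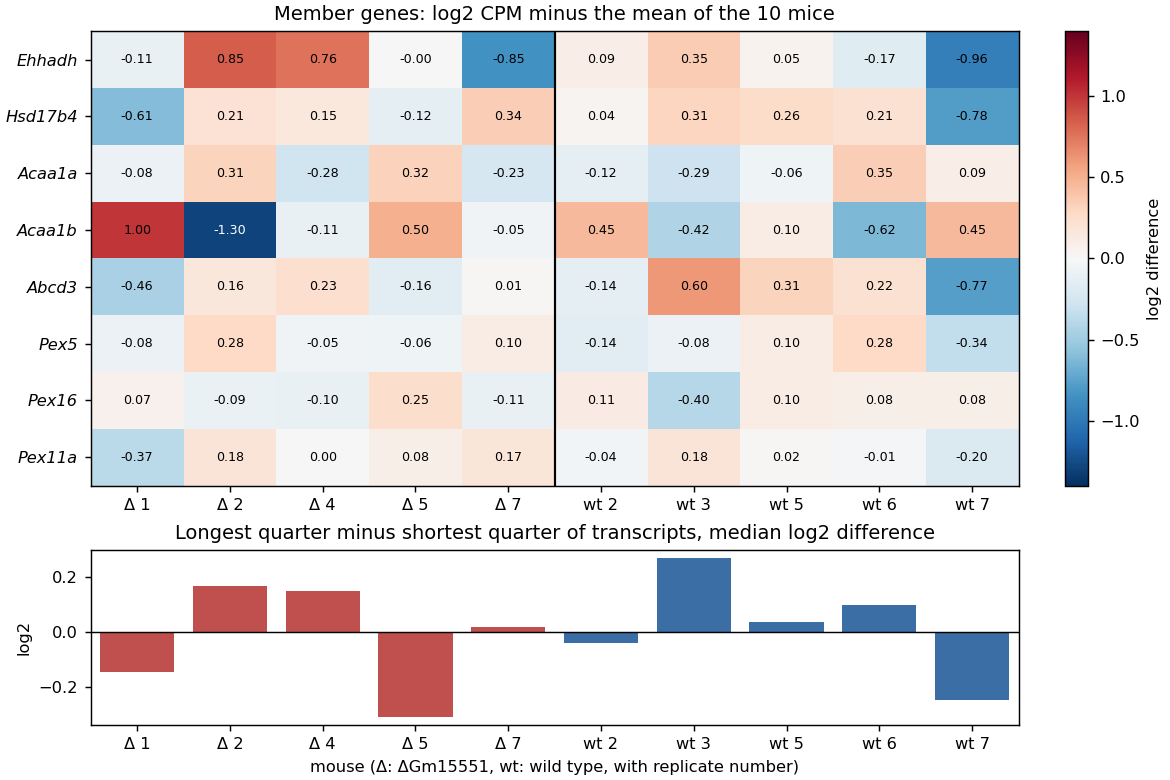
Top, log2 CPM of each member minus its mean over the 10 mice, by mouse. Bottom, the median log2 difference between the genes with the longest and the shortest transcripts in the same mice. Hsd17b4 and Abcd3 are low in ΔGm15551 replicate 1 and wild type replicate 7, while Acaa1b is highest in ΔGm15551 replicate 1 (144 CPM) and lowest in ΔGm15551 replicate 2 (29.1 CPM).

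The low values of ΔGm15551 replicate 1 and of wild type replicate 7 were shared with the rest of the organelle. Another 47 peroxisomal genes averaged 10 CPM or more, and in ΔGm15551 replicate 1 43 of them were below their mean over the mice (median deviation -0.30 on the log2 scale). For wild type replicate 7 the number was 38 (-0.29). The members themselves had medians of -0.10 and -0.27 there, with 6 and 5 of the 8 below their mean. Over all 8082 genes the medians were -0.06 and -0.07, with 4745 and 4701 genes below their mean. The 4 mitochondrial counterparts were at -0.45 and -0.50 in the same mice, and the 6 common adipocyte markers at -0.30 and -0.41. The 8 brown adipocyte markers were at -0.06 and -0.30. Both mice were among the 3 with the highest share of muscle counts. The third, ΔGm15551 replicate 4, had 0.196% of its counts on muscle genes, beside 0.0878% and 0.313% in those mice. Its medians were -0.022 for the members (4 of 8 below their mean), 0.086 for the other peroxisomal genes (14 of 47), 0.10 for the mitochondrial counterparts and 0.051 for the common adipocyte markers. The part of muscle in these values was not tested.

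Of the 28 pairs of members, Hsd17b4 and Abcd3 alone passed a permutation test over the 10 mice (r = 0.90, permutation p = 0.00036, adjusted p = 0.0101). The rank correlation was 0.78 (permutation p = 0.0103, adjusted p = 0.242). With each genotype centred on its mean r was 0.91. Without the 2 mice farthest from the median of Hsd17b4 it was 0.67 (permutation p = 0.0661), and without the 3 libraries richest in muscle 0.69 (permutation p = 0.0832). The pair passed in neither set. Fewer mice also make a test less able to pass, so whether the call rests on those mice was not tested. After the loess correction r was 0.86 (permutation adjusted p = 0.0608).

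The sign of r also varied among the members, and Acaa1b had a negative r in most of its pairs. On the TMM scale, r was below 0 in 6 of its 7 pairs (median -0.65), with Pex16 at 0.50 as the exception, and above 0 in 13 of the 21 pairs among the other members (median 0.36). After the loess correction r was below 0 in all 7 pairs with Acaa1b (-0.75 to -0.34) and above 0 in all 21 pairs without it (0.05 to 0.86). The corrected values had the same signs against the difference between long and short transcripts, with an r of -0.61 for Acaa1b and 0.24 to 0.74 for the other members. The part of this difference in the signs was not tested, and the share of positive r over pairs of other genes was not determined. None of the pairs with Acaa1b passed the test on either scale after adjustment over 28 pairs, and the split of reads with Acaa1a bears on these values. With Acaa1a, r was -0.26 on the TMM scale and -0.75 after the correction. The pattern was noticed in these data and is a description of these 10 mice, which share their libraries across all pairs.

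**Figure D5:**
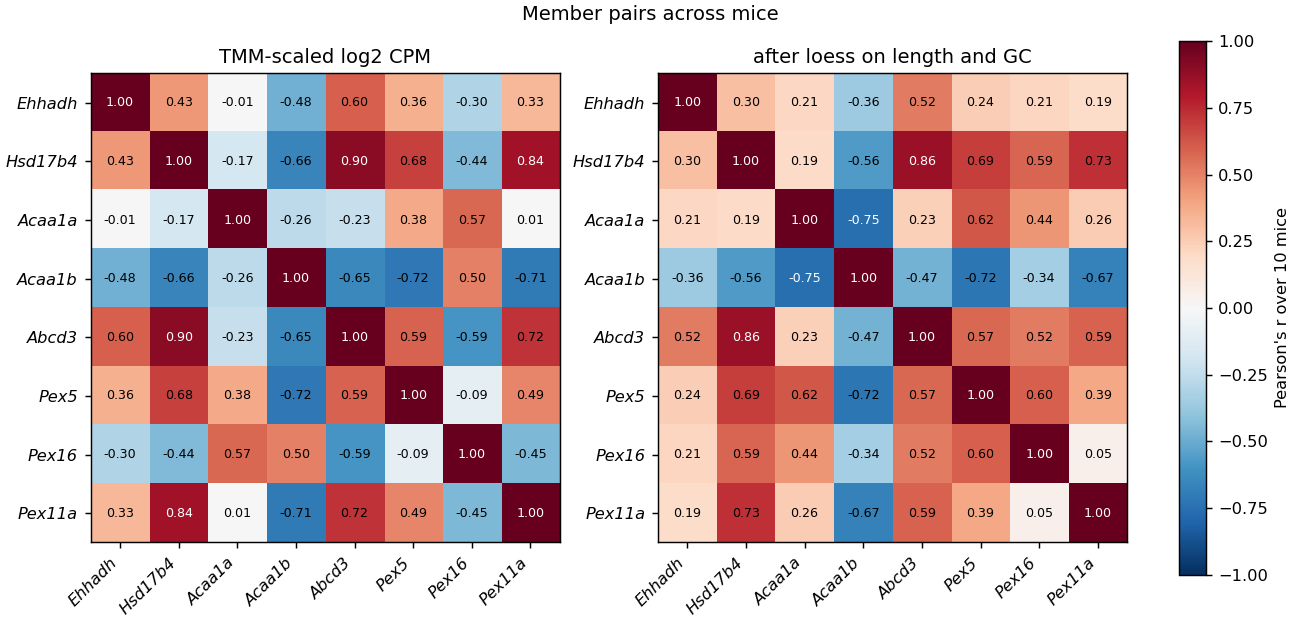
Pearson's r of log2 CPM over the 10 mice for each pair of members, on the TMM scale (left) and after a loess correction on transcript length and GC content (right). Hsd17b4 and Abcd3 have the highest r, 0.90 and 0.86. On the right, the row of Acaa1b is negative throughout and every other pair is positive.

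The ratio of the thiolases varied widely between mice, with no difference detected between genotypes. Counts of Acaa1a over Acaa1b were 0.891, 5.77, 1.68, 1.67 and 1.66 in ΔGm15551 replicates 1, 2, 4, 5 and 7, and 1.27, 2.06, 1.69, 3.70 and 1.47 in wild type replicates 2, 3, 5, 6 and 7. More counts for Acaa1b than for Acaa1a were seen in ΔGm15551 replicate 1 alone. Averaged on the log2 scale the ratio came to 0.92 ± 0.98 for ΔGm15551 mice and 0.92 ± 0.60 for wild type mice (SD, n = 5 each). A two-sided exact permutation test over 252 assignments gave p = 1.

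The ratio of counts of the bifunctional enzymes, Ehhadh over Hsd17b4, was 1.76, 1.93, 1.89, 1.34 and 0.542 in ΔGm15551 mice and 1.28, 1.28, 1.07, 0.95 and 1.09 in wild type mice. It was above every wild type value in 4 of the 5 ΔGm15551 mice and below every one in replicate 7, where Ehhadh was low and Hsd17b4 at its highest. The mean log2 ratio was 0.44 ± 0.77 and 0.17 ± 0.18 (SD, n = 5 each), a difference of 0.27 (two-sided exact permutation test, p = 0.492, 0.984 adjusted over both ratios). ΔGm15551 replicate 7 decided this value, since without it the difference was 0.60 and the groups did not overlap. The exact permutation p of 0.00794 is then the smallest that 4 against 5 mice can give and only restates that separation. Wild type ratios spread less than ΔGm15551 ratios, a difference that was not tested.

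For the members other than Pex16, the gene with the most similar profile over the 10 mice was sought among 8081 others averaging 10 CPM or more, by Pearson's r as a description with no test. These were Herc2 for Ehhadh (r = 0.95), Cox15 for Hsd17b4 (0.99), Pxmp2 for Acaa1a (0.94), Cdh13 for Acaa1b (0.98), Exoc3 for Abcd3 (0.99), Tm9sf4 for Pex5 (0.94) and Afg1l for Pex11a (0.95). Pxmp2, a channel of the peroxisomal membrane, is on the list of other peroxisomal genes. For each member, 0 of the other members were among the 100 most similar genes, Hsd17b4 and Abcd3 included. With only 7 other members among 8081 genes, a random draw of 100 would mostly give 0 as well. The points share their libraries, and with 10 mice a high r is common among so many genes. Without the 3 libraries richest in muscle, r stayed between 0.92 and 0.995 for these pairs, apart from Pex11a and Afg1l (0.75).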

How the data were processed

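Poly A RNA was measured in iBAT of 10 mice, and each mouse was its own replicate. Per the labels and the study's methods, the authors trimmed paired-end reads (cutadapt) and estimated transcript abundance (salmon) on GENCODE M22 on GRCm38 (or M22 joined with RNAcentral). Tool versions and a strand setting are not given in the sources used here. The deposited values were estimated counts (expected counts) per gene as whole numbers, not scaled to depth, and salmon shares reads between similar transcripts by an estimate. Gene positions and lengths were from GENCODE M21 on the same build (99.5% of 54347 IDs found).

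Counts were fitted with edgeR 4.0.16 in R 4.3.3 (filterByExpr with a minimum count of 10 and a total of 15, Gm15551 kept, TMM, robust glmQLFit, glmQLFTest, genotype as the only term), with Benjamini-Hochberg adjustment over the 13733 genes tested and a threshold of 0.05. log2 CPM had a prior count of 2. Correlations used 100000 permutations. The scripts were tested on simulated data. The depth of 9680976 to 15771170 counts limits precision for genes with few counts. DESeq2 1.42.0, limma 3.58.1 and other settings were alternatives.

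The members and lists were chosen with earlier results of these data known. Genes named were the members, Gm15551, Ppara, 4 mitochondrial counterparts, listed peroxisomal genes under an unadjusted p of 0.05 (or the 3 smallest p), the 2 highest per length in each role, and the gene most like each member (for Pex16 not reported here). Myd88, Dlec1 and Large2 were added after their overlaps were seen.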

Additional observations from a re-analysis of the deposited data

Results flagged for a closer look

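Among 22 groups of 5 mice that were searched for a value far from the rest, 2 were found, while chance gives about 1.1. Pex16 in wild type replicate 3 was 84.3 CPM, apart from the other wild type mice at 117 to 119.9 CPM (gap over range 0.93, critical value 0.71). This mouse also had the highest difference between long and short transcripts (0.27 on the log2 scale), and its part in the value was not tested. The ratio of Acaa1a to Acaa1b in ΔGm15551 replicate 2 was 5.77, apart from 0.891 to 1.68 in the other ΔGm15551 mice (gap over range 0.84). Acaa1b was at its lowest there, 29.1 CPM.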

How the results depend on the processing

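Under 23 alternatives (other scalings, filters, tools, covariates and sets of mice), 0 genes, 0 members and 0 of the listed peroxisomal genes were called. The number of genes at an unadjusted p under 0.05, 220 with edgeR as reported, was 869 with no filter, 470 with limma-voom quality weights, 561 without the 3 libraries richest in muscle, and 398 and 554 in the 6 mice with shared numbers with and without the block. Of the listed peroxisomal genes, 0 as reported, this number was 1 with quality weights and with the block, and 2 in the 6 mice without the block and without the 3 libraries richest in muscle. Ehhadh kept a log2FC above 0 in all of them (0.030 to 0.50). Leaving out 1 mouse at a time gave a log2FC of -0.18 to 0.10 for Hsd17b4, -0.063 to 0.12 for Acaa1a, -0.16 to 0.35 for Acaa1b, -0.29 to 0.015 for Abcd3, -0.0036 to 0.15 for Pex5, -0.085 to 0.028 for Pex16 and -0.014 to 0.12 for Pex11a. It gave a difference of -0.40 to 0.27 for the log2 ratio of Acaa1a to Acaa1b and 0.15 to 0.60 for that of Ehhadh to Hsd17b4. Other reversals were -0.088, -0.073 and -0.076 for Acaa1a, Acaa1b and Pex16 under limma-voom with quality weights, -0.0041, -0.0042 and -0.00077 for Pex16 under DESeq2 size factors, the DESeq2 Wald test and a filter of 1 CPM in 5 mice, -0.058 and -0.086 for Acaa1a and Pex16 after the loess correction, -0.045 for Acaa1b without the 3 libraries richest in muscle, and -0.049 for Pex11a without wild type replicates 5 to 7, where the thiolase ratio difference was 0.22. As a linear ratio it was 0.30. The causes were not tested.

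Replicate numbers 2, 5 and 7 occur in both groups, but same-numbered mice did not deviate together (correlations -0.07, 0.05 and -0.39). With the number as a block in these 6 mice, 0 genes were called and the log2FC was 0.30 for Hsd17b4, -0.61 for Acaa1b, 0.20 for Abcd3 and -0.082 for Pex16, with ratio differences of 0.78 (thiolases) and -0.029 (bifunctional enzymes). Without the block they were 0.25, -0.45, 0.14 and -0.073 for the 4 genes. The median log2FC of the listed peroxisomal genes was 0.14 with the block and 0.13 without it in these mice, and -0.11 to 0.041 when 1 mouse at a time was left out of all 10.

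In the order of levels, 4 of 7 neighbour pairs passed, 2 other pairs with the coding transcript as length and 0 in wild type alone, where an exact test on 5 mice cannot go below p = 0.0625. For the same reason the mitochondrial pairs did not pass there (log2 ratios -0.89, -1.26, -2.59, -3.63 and -1.12). Of the member pairs, 1 passed, and 0 passed without the 2 farthest mice, without the 3 libraries richest in muscle, after the loess correction or by rank. Leaving out muscle-rich libraries and the loess correction were chosen after seeing the data, while the rank correlation was planned. With at least 410 counts per member and mouse, counting error was small beside the spread between mice, which with 5 mice per group limits the precision most for Ehhadh and Acaa1b.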
